A study of Homo sapiens with 6 samples.

Results

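The sites called for SMAD4 were set against the sites called for p300 in 786-O cells, peak by peak and then gene by gene. A SMAD4 peak and a p300 peak were taken as a pair when their overlap covered at least 0.5 of the length of each. The rule gave 10333 paired sites, each of 1 peak from each list, out of 46367 SMAD4 peaks and 20380 p300 peaks. The 3 peak lists of the series hold 118277 peaks in all. A protein-coding gene was counted for a factor when the summit of a peak, its highest point, fell inside the gene or in the 5000 bp before its start, and 20033 genes were scored in this way.

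786-O is an established human line of clear cell renal cell carcinoma. The series mapped 3 proteins by chromatin immunoprecipitation followed by sequencing (ChIP-seq), with 2 libraries for each, and asked where DPF3a, an isoform of a SWI/SNF chromatin remodelling subunit, meets SMAD4 and p300 in the genome. SMAD4 was precipitated with a Santa Cruz antibody (sc7966) and p300 with an Abcam antibody, both from chromatin fixed with formaldehyde alone. DPF3a was taken through an HA tag, from chromatin fixed with a first crosslinker, DSG, and then formaldehyde. The study used cells overexpressing the tagged DPF3a for this, and reports that DPF3 is otherwise almost undetectable in 786-O. The DPF3a peaks below are those of the overexpressed protein. The labels name no treatment, no control library and no genotype beyond the line. Whether extra DPF3a was present in the SMAD4 and p300 experiments is not given either.

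SMAD4 is the common partner of the receptor-activated SMADs. Ligands of the TGF-β superfamily bind paired type I and type II receptors at the cell surface, the type I receptor phosphorylates SMAD2 and SMAD3 or SMAD1, SMAD5 and SMAD9, and these enter the nucleus together with SMAD4. SMAD proteins bind DNA weakly on their own and act beside other transcription factors such as AP-1 and RUNX proteins, whereas p300, a histone acetyltransferase, binds no DNA sequence of its own and is brought to promoters and enhancers by transcription factors, the SMADs among them.

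Each list came as 1 set of peaks for both libraries of a factor, so no spread between replicates could be computed, and every interval below is a 95% Wilson or order-statistic interval that covers the counting of peaks, sites or genes only. The strength of a peak is given as fold enrichment, the reads at the summit over the local background, as summit height, the number of reads piled up at the summit, and as the −log10 q of the peak. The lowest background a peak could have was 2.25 reads in the SMAD4 list and 2.05 in the p300 list, which for fragments of 200 bp and a genome of 2.7 Gb would correspond to 30.4 M and 27.6 M reads. Peak lists measure no expression, so the cell label could be checked only by where peaks fell. Of 7 renal marker genes, 2 had a summit of neither factor and 3 had a paired site, shares near those of all protein-coding genes, 26.7% and 40.4%, so these counts do not test the label. Of 8 marker genes of other lineages, 6 had neither and 1 had a paired site.

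The sequences of 5 paired sites are given first because they show both the shared and the divided side of the comparison. They are stretches of the hg38 plus strand that run from 30 bp before the first of the 2 summits to 30 bp after the last, widened to about 100 bp where the summits were closer. None overlaps an annotated exon. Capitals mark the AP-1 heptamer TGACTCA, read on either strand, the letters GGCGCC, which hold a SMAD-type GC element, and the E-box CACGTG; of 35116 RefSeq promoters of 300 bases in GRCh38.p14, these letters stood in 4.95%, 19.2% and 7.26%. The site in intron 1 of MEOX2, a homeobox transcription factor gene, at chr7:15643466-15643568, had the highest product of the 2 fold enrichment percentiles among sites away from genome gaps. The site in TMCC2, which encodes a membrane protein, at chr1:205284633-205284920, was high for SMAD4 and low for p300. The site near the start of FOSL1, which encodes the AP-1 subunit FRA1, at chr11:65899365-65899609, carried all 3 motifs. The sites in intron 3 of SMAD6, an inhibitory SMAD, at chr15:66765955-66766056, and in intron 1 of WNT7B, a secreted ligand linked to cell movement, at chr22:45969139-45969247, are 2 of the strongest SMAD4 sites at listed genes and hold none of the 16 motifs searched.
MEOX2: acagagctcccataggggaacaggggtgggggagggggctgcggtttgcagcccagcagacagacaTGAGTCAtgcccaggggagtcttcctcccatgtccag
TMCC2: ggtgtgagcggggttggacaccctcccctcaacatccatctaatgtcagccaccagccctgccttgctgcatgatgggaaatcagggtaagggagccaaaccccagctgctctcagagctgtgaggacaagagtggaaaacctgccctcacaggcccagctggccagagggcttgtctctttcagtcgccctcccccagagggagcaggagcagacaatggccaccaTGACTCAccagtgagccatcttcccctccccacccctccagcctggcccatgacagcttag
FOSL1: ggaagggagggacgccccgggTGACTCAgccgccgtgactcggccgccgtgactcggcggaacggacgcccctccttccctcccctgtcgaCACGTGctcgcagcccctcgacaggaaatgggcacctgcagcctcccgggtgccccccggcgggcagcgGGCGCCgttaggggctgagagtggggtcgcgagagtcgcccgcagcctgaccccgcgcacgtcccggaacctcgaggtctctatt
SMAD6: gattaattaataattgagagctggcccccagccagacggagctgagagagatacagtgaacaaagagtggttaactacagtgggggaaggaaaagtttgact
WNT7B: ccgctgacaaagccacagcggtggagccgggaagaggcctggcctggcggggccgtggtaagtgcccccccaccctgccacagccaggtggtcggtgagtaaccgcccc

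In the MEOX2 site the AP-1 letters lay 10 bp from the SMAD4 summit and 26 bp from the p300 summit. In TMCC2 they lay 27 bp from the SMAD4 summit at position 205284890 and 200 bp from the p300 summit at 205284663. At FOSL1 the distances were 6 bp and 190 bp. In all 3 sites the AP-1 letters were nearer to the SMAD4 summit, a pattern that is counted over all paired sites further on.

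SMAD4 and p300 shared 22.3% of the SMAD4 peaks (interval 21.9 to 22.7) and 50.7% of the p300 peaks (50.02 to 51.4). Another 2990 SMAD4 peaks (6.45%) and 3290 p300 peaks (16.1%) touched a peak of the other factor without meeting the pairing rule. The remaining 33044 SMAD4 peaks (71.3%) and 6757 p300 peaks (33.2%) lay apart. With the SMAD4 list reduced to its strongest 20380 peaks, so that both lists were of equal size, the shared part was 41.6% of each.

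Pairing was more frequent at gene starts than away from them. Of the 10634 SMAD4 peaks with a summit within 1000 bp of a gene start, 52.4% were paired (51.4 to 53.3), against 13.3% (12.98 to 13.7) of the 35733 distal ones. For p300 the shares were 76.3% (75.3 to 77.2) of 7288 promoter peaks and 36.5% (35.6 to 37.3) of 13092 distal peaks. Because distal SMAD4 peaks are so numerous, the paired sites themselves were nearly balanced, with 5570 promoter sites (53.9%, 52.9 to 54.9) and 4763 distal sites (46.1%). Only 2.77% of the p300 peaks apart from SMAD4 were at a promoter, and 11.4% of the SMAD4 peaks apart from p300.

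Among SMAD4 peaks, the paired ones were the strong ones. Median fold enrichment was 8.51 at paired SMAD4 peaks, 7.24 at those that only touched a p300 peak and 5.63 at those apart, and median summit height was 72, 65 and 31 reads. Sorted into deciles by fold enrichment, the share of SMAD4 peaks paired with p300 was 5.13% (4.53 to 5.80) in the weakest decile and 50.1% (48.7 to 51.6) in the strongest, rising at each step. By summit height the share went from 2.85% to 53.6%.

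For p300 the answer depended on which measure of strength was used. By summit height, 5.70% of the p300 peaks in the lowest decile, all of 14 reads, were paired, against 79.9% of those in the highest decile, of 37 to 170 reads. By −log10 q the share went from 12.6% to 87.1%. By fold enrichment there was no such course: the share was 56.2% in the weakest decile, fell to 16.0% in the sixth and reached 74.1% in the strongest. The sixth decile covered fold enrichments of 4.92 to 5.02 only, with a median background of 2.05 reads and a median height of 14 reads, and 11.3% of its peaks were at promoters. Median fold enrichment was accordingly 4.83 at paired p300 peaks and 4.92 at those apart, while median height was 27 and 16 reads and median background 4.86 and 2.05 reads.

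**Figure D1:**
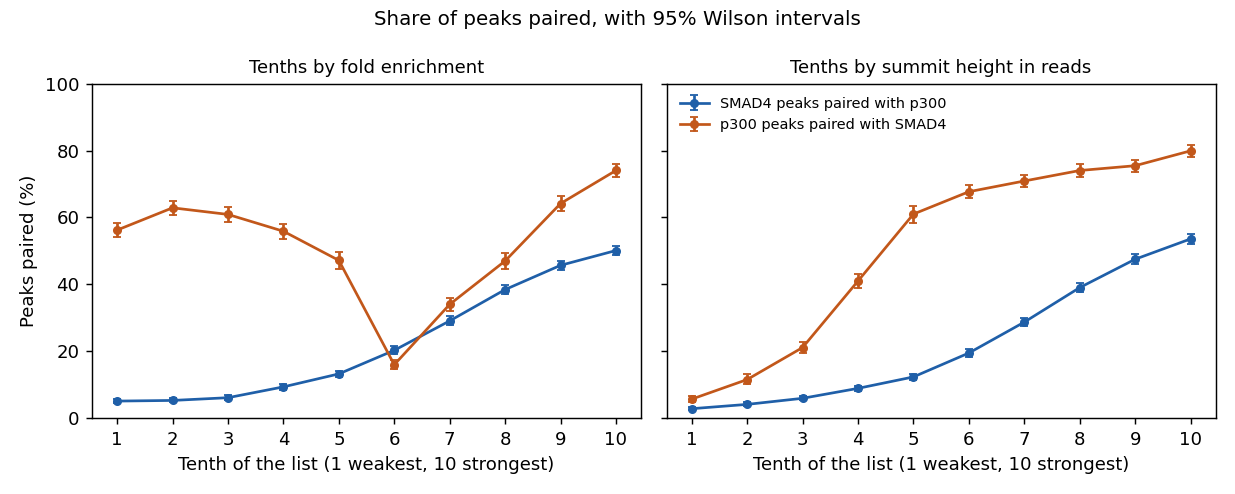
Percent of peaks paired with the other factor (y axis) by decile of the peak list, from the weakest to the strongest (x axis), for SMAD4 and p300. Deciles are by fold enrichment (left) and by summit height (right). Bars are 95% Wilson intervals of the counts. The SMAD4 shares climb with both measures, whereas the p300 shares climb by height and dip to 16.0% in the sixth decile by fold enrichment.

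Several features moved with p300 peaks that had no SMAD4 partner, and their part in the result was not tested. Chromosomes 5, 7 and 8 held 38.8% of the p300 peaks apart from SMAD4 but 17.0% of the paired ones. On these chromosomes 53.4%, 53.2% and 54.5% of the p300 peaks lay apart, against 6.07% on chromosome 19 and 9.88% on chromosome 14. Coding exons far from a gene start held 10.4% of the p300 peaks apart and 1.14% of the paired ones. DPF3a peaks touched 5.51% of the p300 peaks apart, 76.4% of those touching a SMAD4 peak and 86.5% of those paired. Without the 3 chromosomes 55.4% of the p300 peaks were paired, and without the 21.6% of p300 peaks and 6.36% of SMAD4 peaks at the lowest background of their lists 60.6% were paired.

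**Figure D2:**
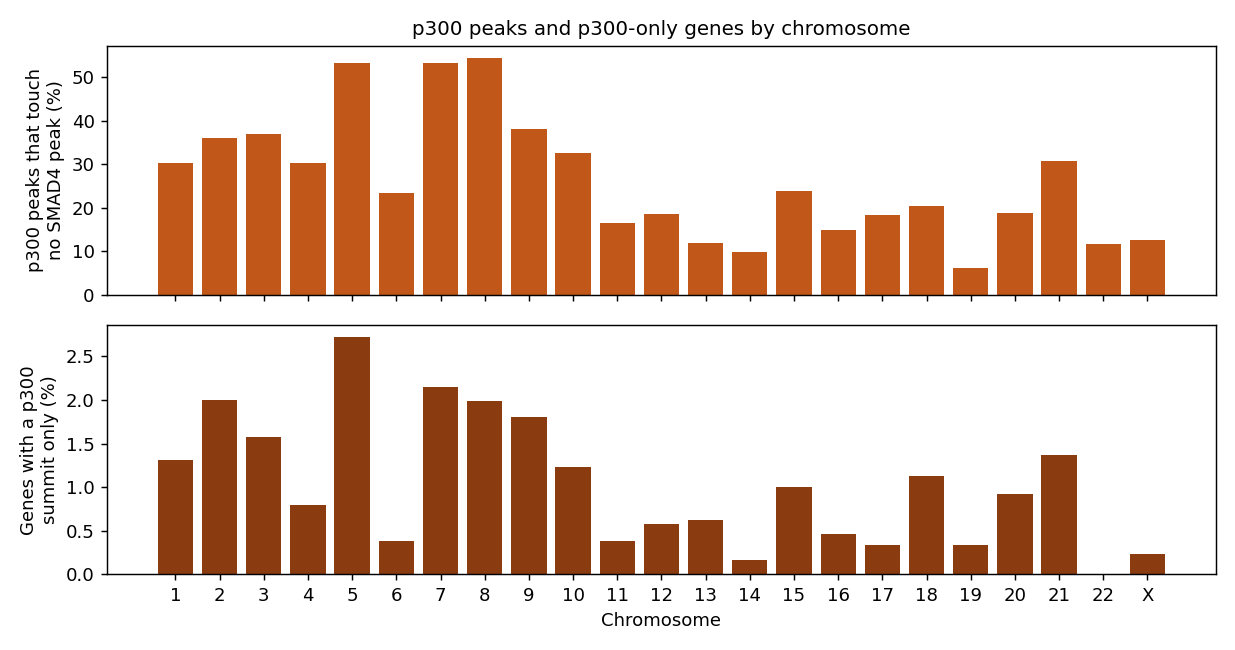
Percent of p300 peaks that touch no SMAD4 peak (top) and of genes with a p300 summit only (bottom), by chromosome, without chromosome Y. Chromosomes 5, 7 and 8 stand above the others in the share of p300 peaks apart from SMAD4, at 53.4%, 53.2% and 54.5%.

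The SMAD4 peaks apart from p300 showed less of this. Coding exons held 1.31% of them and 0.958% of the paired SMAD4 peaks, and chromosomes 5, 7 and 8 held 15.3% and 17.0%. DPF3a touched 70.7% of the SMAD4 peaks apart and 86.7% of the paired ones. At the paired sites as a whole, 86.8% (8964 sites) touched a DPF3a peak, 82.8% at promoters and 91.4% at distal sites.

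At the paired sites a strong SMAD4 peak went with a strong p300 peak only loosely when fold enrichment was compared. Over the 10333 sites Spearman's coefficient was 0.224 and Pearson's r 0.248 for fold enrichment, 0.303 and 0.225 for −log10 q, and 0.566 and 0.471 for summit height. The 2 local backgrounds correlated more closely than any measure of strength, at 0.681 and 0.715. These are descriptions across sites of the same genome, whose 2 peaks share their local surroundings, and no control library is named for either list. The part of the shared background in the correlations was not tested. At promoter sites the Spearman coefficient for fold enrichment was 0.258 and at distal sites 0.193, and it was 0.219 where a DPF3a peak touched and 0.307 at the 1369 sites where none did.

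**Figure D3:**
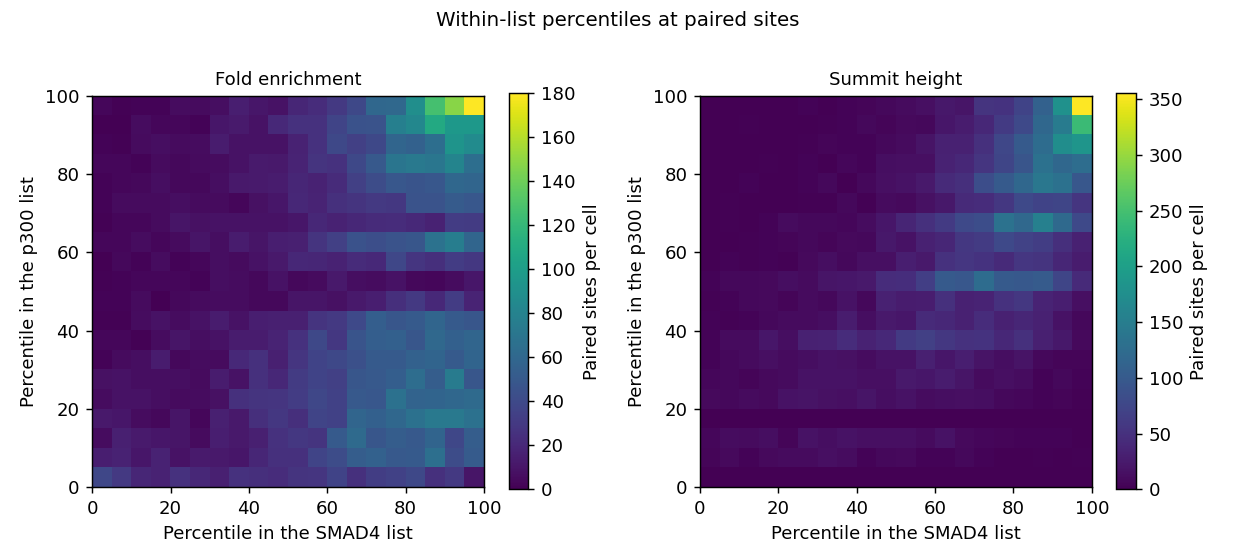
Paired sites by the percentile of the SMAD4 peak within the SMAD4 list (x axis) and of the p300 peak within the p300 list (y axis), by fold enrichment (left) and summit height (right), with the number of sites in each cell as colour. Sites crowd toward high SMAD4 percentiles, with medians of 76.3 by fold enrichment and 77.7 by height, while the p300 medians are 43.5 by fold enrichment and 65.4 by height.

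By fold enrichment the paired SMAD4 peak had a median percentile of 76.3 within its own list and the paired p300 peak 43.5, and by summit height 77.7 and 65.4. By fold the SMAD4 percentile was the higher one at 7184 sites (69.5%). Of the 5402 sites whose SMAD4 peak was in the top quartile of its list, 38.0% had a p300 peak in the top quartile and 24.0% in the bottom quartile. Of the 638 sites in the bottom SMAD4 quartile, 13.01% had a p300 peak in the top quartile and 52.4% in the bottom. The median p300 percentile was 14.3 in the weakest decile of SMAD4 peaks, 33.2 to 38.3 from the third to the sixth and 63.8 in the strongest. By height, 56.4% of the 5691 sites in the top SMAD4 quartile had a p300 peak in the top quartile. Top-decile peaks of both factors met at 520 sites, which is 22.4% of the 2324 paired top-decile SMAD4 peaks and 33.6% of the 1547 paired top-decile p300 peaks.

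The sites highest for both factors that are described here lay away from gene starts. In MEOX2 the fold enrichment was 18.8 for SMAD4, with 304 reads, and 12.9 for p300, with 59 reads. A further 3 were intergenic, here meaning outside every protein-coding gene and its 5000 bp upstream. DPF3a peaks touched these 3 and the MEOX2 site. The site at chr10:46106790 was 60521 bp from the start of MSMB, with folds of 19.6 and 10.2. The site at chr1:146377109, 32344 bp from PPIAL4H, had folds of 17.1 and 11.4, and the site at chr5:5665732, 243055 bp from ICE1, had 17.2 and 10.3. These sites were selected for their folds, which are therefore only described. Paired sites within 20000 bp of a run of N in the genome, 32 in all, were not eligible. Of these, 4 ranked high enough to be passed over before the fifth site was reached.

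At the sites with the largest excess of the SMAD4 percentile, SMAD4 was among the top 2% of its list by fold and p300 near the bottom by fold. By height p300 was not low there, with 28 to 34 reads against a list median of 23. CRISPLD2, which encodes a secreted protein, had a fold of 14.6 with 231 reads for SMAD4 and 3.20 with 32 reads for p300 in intron 5. CACNA1H, a T-type calcium channel gene, had 14.9 and 3.47 in intron 2, TMCC2 had 15.2 and 3.43, and a site upstream of SEMA4B, a semaphorin gene, had 13.6 and 3.41. The other of the 5 was intergenic, 25686 bp from the start of PTK2, the focal adhesion kinase gene, with 15.0 and 3.13. The local p300 background at these 5 sites was 7.36 to 10.2 reads, and all 5 touched a DPF3a peak.

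The opposite sites had low SMAD4 folds, over local backgrounds of 6.56 to 16.8 reads. The untranslated exon 7 of ZFAND5, a zinc finger protein gene, had a SMAD4 fold of 3.25 with 28 reads and a p300 fold of 8.23 with 25 reads. The intergenic sites had 3.97 and 7.37 near NUFIP1, 4.21 and 8.13 near GNGT2, where the SMAD4 summit had 74 reads against a list median of 39, and 3.45 and 7.22 at 277145 bp from ZFHX4. The p300 summits of these intergenic sites had 36, 94 and 21 reads, in the same order, against a list median of 23. At the site nearest ZFHX4 the p300 background was 2.05 reads, the lowest of the list. Of these 4 sites, the site near GNGT2 touched a DPF3a peak and the others did not.

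The 2 summits of a paired site were a median of 99 bp apart (97 to 103, quartiles 41 and 206, maximum 1540). They lay within 50 bp of each other at 29.9% of sites, within 100 bp at 50.4%, within 200 bp at 74.2% and within 500 bp at 96.3%. Distal sites were tighter than promoter sites, with medians of 77 bp (74 to 81) and 131 bp (125 to 136). Part of the range went with peak width: the median was 50 bp where the wider peak was at most 500 bp, 89 bp above that and up to 1000 bp and 167 bp above 1000 bp. By p300 height it was 92 bp at up to 20 reads, 105 bp at 21 to 40 reads and 75 bp above 40 reads. Along the chromosome the median signed offset was −1 bp.

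Read along the direction of transcription, the offset had a side. At the 5033 promoter sites whose nearby starts are all on 1 strand, the p300 summit lay a median of 65 bp downstream of the SMAD4 summit (59 to 70, quartiles −35 and 197). p300 was downstream at 3330 of the 5015 sites with unequal summits (66.4%, 65.1 to 67.7), and at 72.2% of the 2899 sites with summits over 100 bp apart. The median was 64 bp for genes on the plus strand and 65 bp for genes on the minus strand. Starts chosen around the p300 summit in place of the SMAD4 summit also gave 65 bp.

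The position of each summit against the start showed where the shift arose. The SMAD4 summit lay a median of 31 bp downstream of the start (quartiles −113 and 99), with 47.96% of summits within 100 bp, and the p300 summit 117 bp downstream (−80 and 214), with 21.3% within 100 bp. In bins of 50 bp the SMAD4 summits were most frequent 50 to 100 bp downstream, with 950 summits, and had a second, smaller maximum of 479 from −150 to −100 bp. The p300 summits were most frequent 100 to 150 bp downstream, with 731 summits, and had a smaller maximum of 211 from −200 to −150 bp, with only 132 between −100 and −50 bp. Both p300 maxima thus lay farther from the start than those of SMAD4.

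**Figure D4:**
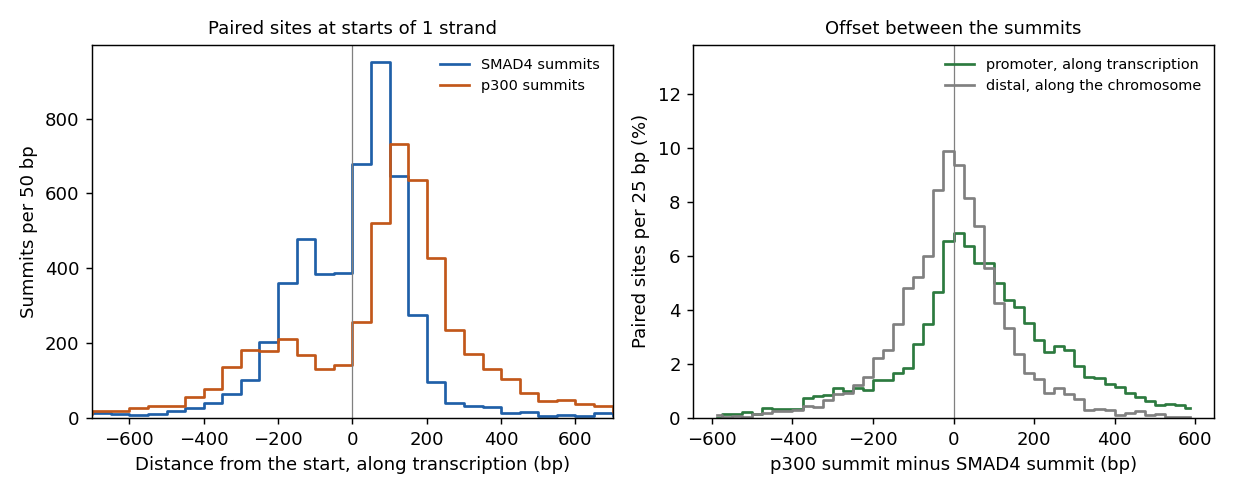
Left, number of SMAD4 and p300 summits per 50 bp bin (y axis) by distance from the gene start along transcription (x axis, bp) at paired promoter sites of 1 strand. Right, percent of paired sites (y axis) by distance from the SMAD4 summit to the p300 summit (x axis, bp) at promoter sites, read along transcription, and at distal sites. Both curves have their highest point around 0, and the promoter curve leans downstream, with a median of 65 bp. The distal offsets are read along the chromosome, with no gene direction, so a lean along transcription could not show there.

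At some SMAD4 peaks p300 was called on both sides. BMPR2 and ACVR1B, described below, drew attention to this arrangement, and the count was made after their values were seen. Of the 13323 SMAD4 peaks that touched any p300 peak, 374 (2.81%) touched 2 or more. At 279 of these the p300 summits lay on both sides of the SMAD4 summit, and 223 of the 279 (79.9%) were at promoters. Of all paired SMAD4 peaks 53.9% were at promoters, and of those that only touched a p300 peak 43.0%. The reverse arrangement, a p300 peak with SMAD4 summits on both sides, was found at 58 peaks. The part of peak width in these counts was not tested.

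Paired p300 peaks were slightly narrower than their SMAD4 partners. Median width was 821 bp for SMAD4 (quartiles 635 and 1026) and 730 bp for p300 (519 and 977), and the median ratio of p300 to SMAD4 width was 0.899 (0.892 to 0.905). The pairing rule confines this ratio to between 0.5 and 2. It was 0.944 at promoters and 0.838 at distal sites, and the p300 peak was the wider one at 3540 sites (34.3%). The 2 widths correlated across sites with a Spearman coefficient of 0.777 and a Pearson r of 0.758, within the same limits. Where peaks touched and neither was paired, 3217 overlaps, the SMAD4 peak had a median width of 931 bp and the p300 peak 387 bp, and in 2759 of them (85.8%) the p300 peak alone was covered to the required extent.

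The DNA under the summits separated promoter from distal sites and SMAD4 from p300. Within 50 bp of the SMAD4 summit, the AP-1 letters TGACTCA stood at 18.5% of distal paired sites (17.4 to 19.6) and at 19.3% of distal SMAD4 peaks apart from p300 (18.8 to 19.7), against 1.51% and 1.71% in windows 1000 bp away. At promoter paired sites they stood at 0.934%, and at 1.24% of the windows 1000 bp away. Under the p300 summit of distal paired sites the share was 10.2% (9.41 to 11.1), and under p300 peaks apart from SMAD4 it was 1.61%, close to the 1.49% of the windows 1000 bp away.

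Other letters followed the same division of place. The RUNX motif TGTGGTT stood at 5.40% of the SMAD4 summits and 3.92% of the p300 summits of distal paired sites, and at 7.999% of distal SMAD4 peaks apart, with 1.70% to 1.72% in the shifted windows of these groups. At promoter paired sites the ETS motif CCGGAAGT stood at 2.15% of SMAD4 summits (1.80 to 2.57) and 1.08% of p300 summits (0.839 to 1.39), and the YY1 motif AAGATGGCG at 1.62% and 0.792%. In the shifted windows of these SMAD4 and p300 summits the ETS letters stood at 0.0718% and 0.0899%, and the YY1 letters at 0.0359% and 0.0360%. The RefSeq promoters are longer stretches than the summit windows. Of these promoters 4.14% held the ETS letters, 1.75% the YY1 letters and 4.27% the RUNX letters anywhere in their 300 bases. A match of letters is no measured binding.

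Where a paired site held exactly 1 match of a motif, the match was usually nearer to the SMAD4 summit. For AP-1 this was so at 64.0% (61.9 to 66.0) of 2106 sites with unequal distances, with median distances of 87 bp for SMAD4 and 141 bp for p300. For ETS it was 73.4% (70.2 to 76.4), with 112.5 and 190.5 bp, for the CRE letters TGACGTCA 77.3%, for the NRF1 letters GCATGCGC 69.1% and for YY1 68.1%. For the TEAD letters ACATTCCA it was 53.5% (48.2 to 58.7), an interval that includes an even split. The GGCGCC letters came to 55.4% (53.4 to 57.4), the HIF letters TACGTG to 54.3% (51.2 to 57.2) and the NF-κB letters GGGANTTCC to 55.6% (51.3 to 59.9). The lean was thus not particular to a few motifs. Summit height differed too, with a median of 72 reads at paired SMAD4 summits and 27 at paired p300 summits. The part of height in these distances was not tested. Base composition differed between the groups: the median GC content around the SMAD4 summit was 69.3% at promoter paired sites and 56.4% at distal ones, and its part in these shares was not tested.

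At the level of genes p300 was nearly contained in SMAD4. Of the 20033 protein-coding genes, 72.3% had a SMAD4 summit and 51.6% a p300 summit. Both were found at 10123 genes (50.5%, 49.8 to 51.2), SMAD4 only at 4360 (21.8%, 21.2 to 22.3), p300 only at 206 (1.03%, 0.898 to 1.18) and neither at 5344 (26.7%, 26.1 to 27.3). Thus 98.0% (97.7 to 98.3) of the 10329 genes with p300 also had SMAD4, and 69.9% (69.1 to 70.6) of the 14483 genes with SMAD4 also had p300. The SMAD4 list is the longer one. With lists of equal size 89.1% of the genes with p300 also had SMAD4, and in gene bodies alone 88.9%. A paired site, the stricter demand, was present at 8094 genes (40.4% of all), or 80.0% (79.2 to 80.7) of the genes with both.

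**Figure D5:**
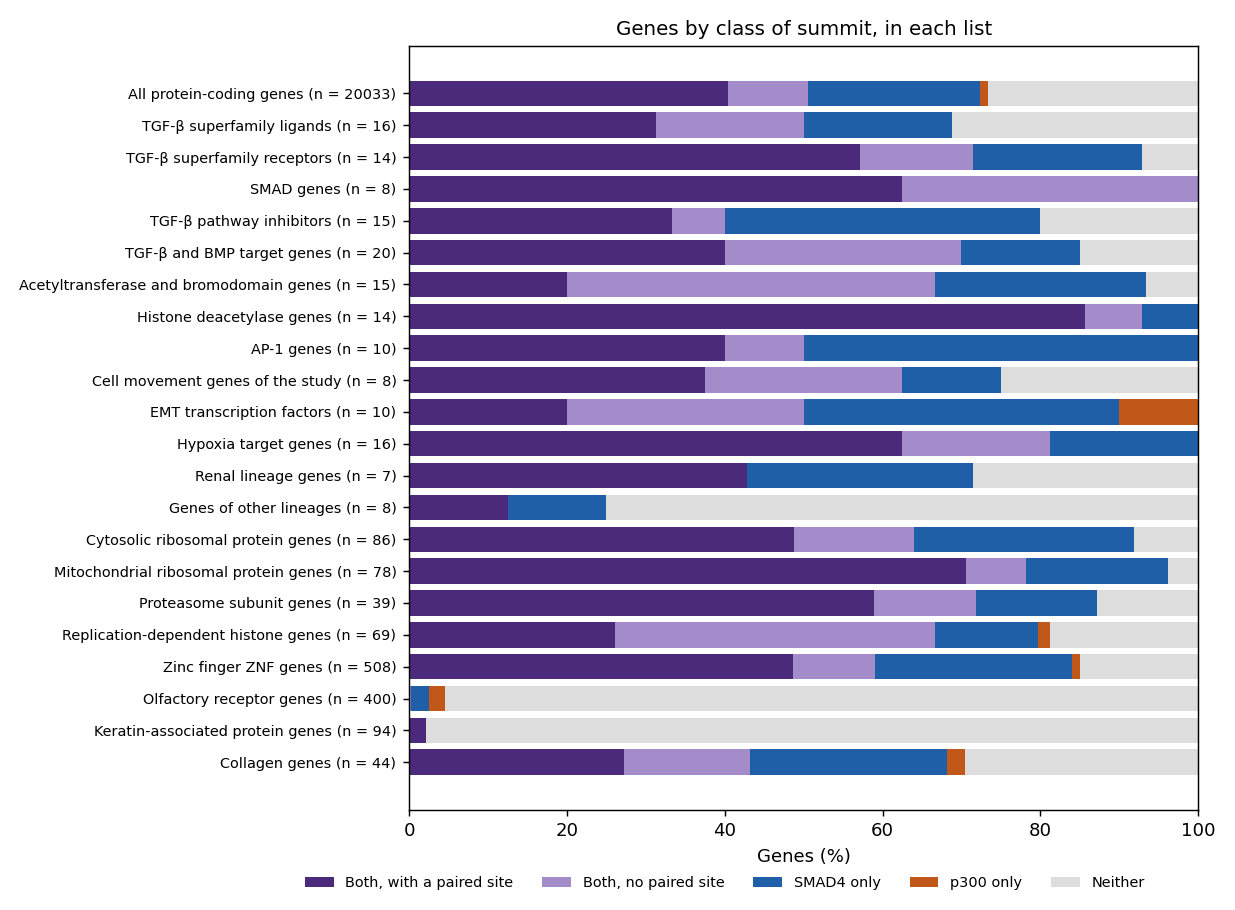
Percent of genes (x axis) with summits of both factors, SMAD4 only, p300 only or neither, for all protein-coding genes and for each gene list. p300 alone is found at 1.03% of all genes and at 0 of the 73 genes of the TGF-β and SMAD lists.

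Sharing a gene was mostly sharing its neighbourhood as well. The 2029 genes with both factors and no paired site had their nearest 2 summits a median of 196 bp apart (quartiles 73 and 486), and 1706 of them (84.1%) had summits within 1000 bp of each other. Within 1000 bp of the start, SMAD4 was found at 11589 genes (57.8%), p300 at 7865 (39.3%) and both at 7693. The 7693 are 97.8% of the p300 starts and 66.4% of the SMAD4 starts, and 6252 of them (81.3%) had a paired site there. Gene length moved with these classes, and its part in them was not tested. Genes with both factors made up 24.2% of the shortest quintile of genes and 72.2% of the longest, and a SMAD4 summit at the start, in a window that does not grow with the gene, was found at 36.4% and 65.0%.

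Genes with SMAD4 and no p300 had SMAD4 peaks only slightly weaker than shared genes. Their 6956 SMAD4 summits had a median fold enrichment of 6.06 and a height of 38 reads, against 6.57 and 48 reads for the 24358 in genes of both factors. PRICKLE2, a planar cell polarity gene, led with 26 SMAD4 summits and no p300 summit. BRCA1, the homologous recombination gene, and CAMK1D, a calcium/calmodulin-dependent kinase gene, had 15 each, 7 of those in BRCA1 being in coding exons far from the start. MED15, a subunit of Mediator, and PHEX, a peptidase gene of phosphate balance, had 13 each.

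The 206 genes with p300 and no SMAD4 were a thin group. In 164 of them it was a matter of 1 p300 summit, and 52 (25.2%) had it at the start. Their 292 p300 summits had a median height of 16 reads and a background of 2.05 reads, against 25 and 4.20 reads for the 14759 p300 summits in genes of both factors. Coding exons far from a start held 16.4% of the former and 5.72% of the latter, and chromosomes 5, 7 and 8 held 39.7% and 20.4%. Of the 206 genes, 58 (28.2%, 22.5 to 34.7) lay on these 3 chromosomes, which hold 12.5% of all genes. The part of these values in the class was not tested. CSMD1, a large CUB and sushi domain gene, had 12 p300 summits, all 12 in coding exons, and PTPRT, a receptor tyrosine phosphatase gene, had 11, 10 of them in coding exons. CTNND2, the δ-catenin gene, had 9 and the cadherin genes CDH10 and CDH9 had 8 and 6. CTNND2, CDH10 and CDH9 lie on chromosome 5, CSMD1 on chromosome 8 and PTPRT on chromosome 20.

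The genes with most paired sites were long and held many peaks of each factor. ABTB2 (chr11:34150987-34358010, minus strand), which encodes an ankyrin repeat and BTB domain protein, had 24 SMAD4 and 10 p300 summits and 9 paired sites. PRKAG2, a regulatory subunit of AMP-activated kinase, had 19, 10 and 9, and TRIO, a guanine nucleotide exchange factor, had 23, 20 and 9. FGGY, a carbohydrate kinase gene, had 15, 7 and 7, and GNG7, a G protein γ subunit, had 13, 7 and 7.

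The class of p300 only depended on the rules. Without the 5000 bp upstream it held 956 genes, with lists of equal size 1124 and with only peaks of a score over 100 it held 24. With that score the genes of SMAD4 only were 10112 and those of both 3523, and with lists of equal size SMAD4 only fell to 2589.

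Of 73 genes in 5 lists, 46 had both factors (63.0%), 15 SMAD4 only (20.5%), none p300 only and 12 neither (16.4%), and 31 (42.5%) had a paired site. Over all genes the shares were 50.5%, 21.8%, 1.03%, 26.7% and 40.4%. Of the 16 ligand genes, 8 had both factors and 5 a paired site, and of the 14 receptor genes, 10 and 8. All 8 SMAD genes had both factors and 5 a paired site. Of the 15 inhibitors 6 had both and 5 a paired site, and of the 20 target genes 14 and 8.

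Among the ligands, the SMAD4 folds at paired sites were highest in 2 BMP genes, an order that neither the p300 folds nor the heights followed. BMP7, a bone morphogenetic protein of kidney development, had folds of 9.33 for SMAD4 and 4.58 for p300 in intron 2, with 49 and 27 reads, and BMP2 had 7.10 and 4.24 at its start. TGFB1, the founding ligand of the family, had 4.02 and 3.58, with 95 and 44 reads. That site lay 26214 bp from the start, in the annotated gene but outside its canonical transcript. TGFB2 had 4.58 and 4.50 at the start with summits 648 bp apart. INHBA, the activin βA subunit, had 5.39 and 5.16, also outside its canonical transcript. TGFB3, INHA and INHBB had SMAD4 only, with 2, 1 and 3 summits. BMP4, BMP5, NODAL, MSTN and AMH had neither.

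Receptor genes carried their paired sites at the start, as most genes with a paired site did. Of all 8094 genes with a paired site, 6294 (77.8%) had one at the start. The 8 receptor genes with a paired site, TGFBR1, TGFBR2, TGFBR3, ACVR1, ACVR1C, ACVR2A, BMPR1A and BMPR1B, all had its SMAD4 summit within 1000 bp of the start, with SMAD4 folds of 6.21 to 11.1 and p300 folds of 4.42 to 6.53. At TGFBR2, the type II receptor of TGF-β, the SMAD4 summit lay 82 bp upstream of the start and the p300 summit 393 bp farther along the chromosome, in the direction of transcription. BMPR2 and ACVR1B had both factors at the start with no pairing. The SMAD4 summit of BMPR2 lay at −42 bp, with a fold of 10.4, between p300 summits at −422 and 95 bp, and that of ACVR1B lay at −125 bp, with a fold of 10.6, between p300 summits at −418 and 164 bp. AMHR2, ACVR2B and ENG had SMAD4 only, and ACVRL1 had neither.

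The SMAD genes differed in where the factors met. SMAD5, which transduces BMP signals, had the strongest p300 peak of the group, with folds of 9.72 and 8.61 at its start, where the SMAD4 summit lay 36 bp and the p300 summit 125 bp from the start. SMAD1 had 6.30 and 4.97 with summits 699 bp apart, and the SMAD4 gene itself had 9.89 and 4.58 at its start. SMAD6 had its strongest paired site, at 11.8 and 3.88, in the intron 3 stretch printed above. SMAD3, the main transducer of TGF-β, had 16 SMAD4 and 5 p300 summits and 3 paired sites in intron 1, with SMAD4 folds of 5.81, 6.80 and 7.94 and p300 folds of 3.90, 3.39 and 3.39, and at the first of them the 2 summits were at the same base. SMAD2, SMAD7 and SMAD9 had both factors without a pair. SMAD7, the inhibitor induced by the pathway, had 8 SMAD4 summits and 1 p300 summit.

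Of the 15 inhibitors, 4 had a paired site at the start, 6 had SMAD4 only and 3 had neither. Over all genes these shares were 31.4%, 21.8% and 26.7%. BAMBI, a pseudoreceptor, had folds of 12.5 and 4.57 at its start with summits 242 bp apart, and SMURF2, an E3 ubiquitin ligase, 12.6 and 5.83 with summits 62 bp apart. SKIL, a nuclear corepressor of SMADs, had 9.04 and 4.39, and the summit heights were 389 and 34 reads. SMURF1 had 2 paired sites. PMEPA1, which sequesters receptor-activated SMADs, had 6 SMAD4 summits of 107 to 351 reads and no p300 summit, and SKI, TGIF2, NOG, FST and LEFTY1 also had SMAD4 only. CHRD, GREM1 and LEFTY2 had neither.

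Target genes of TGF-β ranged widely in fold at their paired sites. ID1, a BMP target, had 2.92 and 2.86, and the heights behind these low folds were 132 and 51 reads. COL4A2, a basement membrane collagen gene, had 13.1 and 5.14 in intron 3 and a weaker site in coding exon 34. Sites counted for ACTA2, the smooth muscle actin gene, had 13.1 and 5.91, and 5.63 and 7.31, and lay in a stretch that also counts for FAS. TGFBI had 3 paired sites, FN1 1 in intron 15 with 4.65 and 4.51, SNAI2 5.80 and 6.52, and ID4 5.41 and 4.94. CCN2 had its SMAD4 summit 73 bp upstream of the start, with a fold of 7.67, and its p300 summit 147 bp downstream, with a fold of 5.43, and no pair. JUNB, ID2 and COL4A1 had SMAD4 only, with 3, 2 and 4 summits, and COL1A2, CDKN2B and TAGLN had neither.

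Over all genes 50.5% had both factors and 40.4% a paired site. Of 14 histone deacetylase genes, 13 had both factors and 12 a paired site. Of 15 acetyltransferase and bromodomain genes, 10 had both factors and 3 a paired site. CREBBP, the close relative of p300, had 5 SMAD4 and 16 p300 summits, none of which touched, and all 16 p300 summits were in coding exons. EP300, the p300 gene itself, had 1 SMAD4 and 14 p300 summits, 12 of these in coding exons far from the start. No difference between the 2 lists was tested. Whether those p300 calls over coding exons reflect chromatin was not tested.

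Of 10 AP-1 genes, 9 had SMAD4 and 3 had p300 at the start, beside 57.8% and 39.3% of all genes, so that SMAD4 at more starts than p300 is the pattern of all genes too. SMAD4 only was found at 5 of the 10, beside 21.8% of all genes, and a paired site at 4. In the FOSL1 site printed above the folds were 3.33 for SMAD4 and 3.14 for p300. Of 8 genes of cell movement, 5 had both factors and 3 a paired site, and in the WNT7B site printed above the folds were 11.7 and 4.27. Of 10 genes of transcription factors of the epithelial-mesenchymal transition, 5 had both, 4 SMAD4 only and 1, TWIST1, p300 only with 3 summits. Of 16 hypoxia genes, 13 had both and 10 a paired site. Over all genes 50.5% had both, 40.4% a paired site and 1.03% p300 only.

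The gene families listed as a wider frame ran from frequent pairing to none. A paired site was found at 55 of 78 mitochondrial ribosomal protein genes, 42 of 86 cytosolic ribosomal protein genes, 23 of 39 proteasome genes and 247 of 508 zinc finger genes, against 40.4% of all genes. At the starts of the cytosolic ribosomal genes SMAD4 was found at 78 and p300 at 51, and at those of the mitochondrial ones at 74 and 59. Over all genes the shares at the start were 57.8% for SMAD4 and 39.3% for p300. Histone genes had a paired site at 18 of 69 and collagen genes at 12 of 44. Neither factor was found at 26.7% of all genes. Of 400 olfactory receptor genes, 382 had neither factor and 0 had a paired site. That 0 allows a share of up to 0.75% by the limit of 3 counts of the total and 0.951% by the Wilson bound. Of 94 keratin-associated protein genes 92 had neither and 2 had a paired site. These genes differ in length and neighbourhood from the rest, and no call particular to a list is drawn from the counts.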

How the data were processed

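ChIP-seq peaks of DPF3a, SMAD4 and p300 from 6 libraries of 786-O cells (2 per factor) were analysed. Per the submitters' processing notes, cutadapt, Bowtie2 2.3.5.1, Picard, MACS2 2.2.5 and deepTools 3.5.0 were used by the authors on hg38; how the 2 libraries of a factor were combined and whether a control was used are not given in the sources used here. The deposited peak files hold, per peak, a score, a fold enrichment, a −log10 p-value and −log10 q-value, and a summit offset as made by the authors; no score was at or below 50. Summit height and local background were computed from the fold and the −log10 p-value.

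Peaks were paired at 0.5 of both lengths and checked with bedtools. Genes and exons came from GENCODE release 44. Percentiles are within a list. Intervals are 95% Wilson or order-statistic intervals. Python 3.11.15, numpy 2.4.6, pandas 2.3.3, scipy 1.17.1 and pysam 0.24.0 were used, and the scripts were tested on simulated data. Peaks are not replicates, and no test between conditions was possible. The members, gene lists and motifs were chosen with earlier results of these data known. Named genes were the members of the TGF-β lists, the 5 genes with the most paired sites, SMAD4-only summits and p300-only summits, and the 5 paired sites of highest combined percentile and of largest percentile difference each way; others named were chosen after their values were seen. Some genes and sites that meet this rule are not reported here. The alternatives were another overlap, summit distance, stricter score, equal-size lists, other gene reaches, other strength measures and another motif window; leaving out chromosomes 5, 7 and 8 or the peaks at the lowest background, and starts around the p300 summit, were added after the data were seen.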

Additional observations from a re-analysis of the deposited data

How the results depend on the processing

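Over 12 results and 65 alternatives, 32 values moved by less than the interval or by less than 1.5 times for counts. The other 33 moved, and 0 reversed. Counts, shares and distances without a sign have no direction to reverse, so the 0 says nothing about them. With an overlap of 1 bp the paired share was 28.7% of SMAD4 and 66.8% of p300 peaks, the median summit offset 111 bp and the width ratio 0.812. With summits within 200 bp the shares were 20.5% and 46.7%. With scores over 100, which left 33165 SMAD4 and 4158 p300 peaks, there were 3405 paired sites, 10.3% and 81.9% of the lists, a rank correlation of 0.204, an offset of 93 bp, a width ratio of 0.947, 3523 genes with both, 10112 with SMAD4 only, 24 with p300 only, 89.1% of shared genes with a paired site and an AP-1 share of 7.05% at paired SMAD4 summits, against 9.04%. With lists of equal size the paired share was 41.6% of each, SMAD4 only 2589 genes, p300 only 1124 and the share of both with a paired site 79.0%. In gene bodies alone p300 only came to 956 genes and that share to 74.1%, and with 20000 bp upstream to 80.8%. The rank correlation was 0.303 by −log10 q, 0.566 by height and 0.193 at distal sites. The offset was 82 bp where both peaks were at most 1000 bp wide, and the AP-1 share 16.1% in a window of 100 bp. Of the alternatives chosen after seeing the data, p300 shares were 55.4% without chromosomes 5, 7 and 8 and 60.6% without peaks at the lowest background, where p300 only fell to 132 genes. The offset along transcription stayed between 59 and 66 bp. Leaving out a replicate was not possible. No paired analysis was possible because the 2 replicates of a factor share 1 peak list. The causes of these moves were not tested, beyond the fewer peaks that stricter settings leave.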
